A study of Mus musculus with 8 samples.

Results

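The 10 classical zinc-dependent histone deacetylase genes Hdac1 to Hdac10 were described by class in lung mesenchymal cells of mouse embryos carrying Sin3a floxed for deletion on both alleles or on 1. SIN3A is the scaffold of a corepressor that contains class I deacetylases. Members were the rows of the deposited gene table whose symbol matched one of those names, 10 of 51912 genes, and all 10 passed the filter on low counts. Class I held Hdac1, Hdac2, Hdac3 and Hdac8, class IIa held Hdac4, Hdac5, Hdac7 and Hdac9, and class IIb held Hdac6 and Hdac10. The 4 Control embryos were Tbx4rtta; tetocre; Sin3a F/+ and the 4 Sin3a CKO embryos were Tbx4rtta; tetocre; Sin3a F/F, all collected at embryonic day 16 and labelled biological replicates. In both groups the mothers were fed doxycycline at embryonic day 12, so that rtTA driven from Tbx4, a gene of lung mesenchyme, turned on Cre. Controls thus carried the same transgenes and 1 floxed allele, and the comparison is of 2 floxed alleles with 1. RNA came from sorted mesenchymal cells, while the tissue label reads bulk lung, with no sort markers named in the sources used here.

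Histone deacetylases remove acetyl groups from lysines of histones and other proteins, and histone deacetylation generally goes with transcriptional repression. Class I enzymes are mostly nuclear and work inside corepressor complexes: HDAC1 and HDAC2 in SIN3, NuRD, CoREST and MiDAC, and HDAC3 in the NCoR and SMRT complexes. Class IIa enzymes bind MEF2 transcription factors, shuttle between nucleus and cytoplasm when kinases mark them for 14-3-3 binding, and have little deacetylase activity of their own. Class IIb enzymes are largely cytoplasmic, with HDAC6 acting on tubulin and cortactin and HDAC10 on acetylated polyamines.

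Libraries held 96098322 to 108493347 counts, and levels are CPM, counts relative to TMM-scaled library size, with the mean ± SD over 4 libraries; Sin3a CKO libraries are also called knockouts. Sin3a itself had 46.2 to 58.7 CPM in controls and 53.2 to 61.0 CPM in knockouts. The deleted exons are unknown here, and a gene-level count is no test of the genotype. Of 12 mesenchyme markers 0 were at 0 in any library and 5 fell; their summed level was 17030 to 23260 CPM in controls and 12380 to 13920 CPM in knockouts. Of 13 epithelium markers 0 passed edgeR's test, at 57.3 to 467 CPM summed in controls and 57.5 to 1335 CPM in knockouts. Their sum was 467 CPM in Control 3 and 620, 416 and 1335 CPM in Sin3a CKO 1, 2 and 3. These are the libraries of s1244, an identifier prefix of unknown meaning in the labels. In the other libraries the sum was 57.3 to 73.8 CPM. Of 11 erythroid markers 6 of the 10 tested rose, at 102 to 884 and 1097 to 4291 CPM. Immune markers (0 of 9 passed) summed to 16.5 to 451 CPM in controls and 216 to 361 CPM in knockouts, and endothelium markers (1 of 9 fell) to 37.4 to 190.5 and 55.7 to 113 CPM. Neural markers (2 of 8 fell) summed to 7.43 to 14.1 and 5.97 to 7.91 CPM and mesothelium markers (1 of 5 fell) to 30.9 to 50.8 and 25.6 to 37.5 CPM. Scgb1a1 of the epithelium list, Hbb-bh1 of the erythroid list and Sox10 and Ret of the neural list were at 0 in at least 1 library. Mitochondrial transcripts took 0.661% to 0.933% of counts in controls and 1.14% to 1.27% in knockouts. Control 4 stood farthest from the rest, at -114.9 on the first principal component, where the other libraries lay between -73.3 and 79.4. The part of these differences in the results below was not tested, and in bulk RNA fewer cells of a type and less RNA per cell cannot be told apart.

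The count of Hdac1 was shared with a near-identical copy. Gm10093, a processed pseudogene on chromosome 17 (78491582 to 78493025, GRCm38), matched the Hdac1 transcript at 99.38% of 1444 aligned bases, with 9 mismatches and a longest identical run of 450 bases. The 60 bases holding 5 of those mismatches, in capitals, are bases 507 to 566 of the longest GENCODE Hdac1 transcript and 423 to 482 of Gm10093. The 2 genes differ more in this window than over the rest of the alignment, and reads within the identical run cannot separate them.
Hdac1: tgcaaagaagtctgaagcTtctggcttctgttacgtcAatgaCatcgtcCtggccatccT
Gm10093: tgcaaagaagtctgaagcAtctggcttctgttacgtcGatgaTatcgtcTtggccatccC
Counted from the first base of the Hdac1 transcript, the mismatches in this window were T525A, A544G, C549T, C556T and T566C, with the Hdac1 base first. Reads assigned to Gm10093 made up 16.2% to 18.4% of the counts of both genes together, 17.2% ± 0.676 in controls and 17.9% ± 0.416 in knockouts, so the level of Hdac1 given here may be low by that share. A second copy was not analysed here, and no other member had a copy at 95% identity over 80% of the copy's length.

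In Sin3a CKO mesenchyme both class IIb genes rose, class IIa split, and no class I gene passed the test. Hdac6, the tubulin deacetylase gene, rose 1.48-fold, and Hdac10, the polyamine deacetylase gene, rose 1.22-fold. In class IIa, Hdac4 rose 1.23-fold and Hdac7 fell to 0.781 of its control level, while Hdac5 and Hdac9 did not pass. Of the 10 genes, then, 3 rose and 1 fell by edgeR's quasi-likelihood test at an adjusted p under 0.05, or 40.0% called, where 33.4% of 20315 tested genes were called, 17.3% as higher and 16.1% as lower. The share called among the 10 was near that background and is not a result about them as a group. The median log2 fold change was 0.08 in class I, -0.08 in class IIa and 0.42 in class IIb, beside 0.04 over all tested genes, whose median absolute change was 0.41. Upper-quartile scaling moved the median of all genes by -0.11 and changed the split over all genes from 3518 higher and 3274 lower to 2790 and 4522, so each change below is relative to the genes around it.

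**Figure D1:**
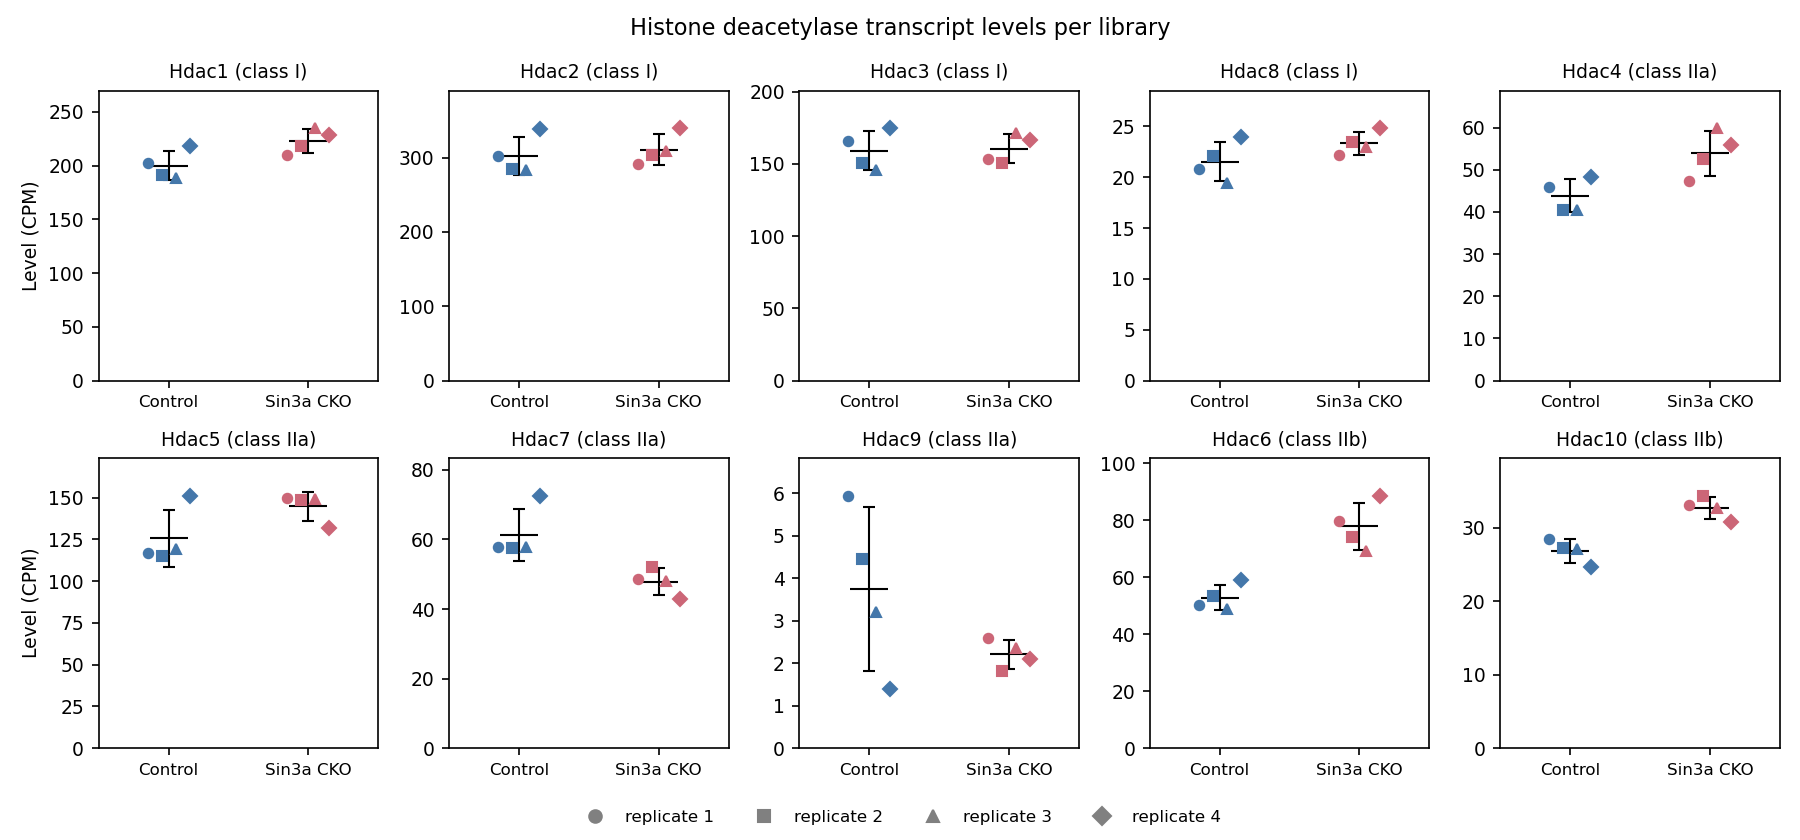
Level of each histone deacetylase gene in CPM (vertical axis, from 0) in the 4 Control and 4 Sin3a CKO libraries, with marker shapes for replicate numbers, a bar at the mean and whiskers of 1 SD. The groups did not overlap for Hdac6 and Hdac10, higher in knockouts, and for Hdac7, lower in knockouts, as for 36.1% of all tested genes. Hdac9 was below 6 CPM in every library.

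Levels differed more from gene to gene than between the groups, and the genes of a class were not alike in level. Per kilobase of annotated exon, Hdac2 and Hdac1 stood highest in controls, at 67.5 ± 5.66 and 58.1 ± 3.87 CPM per kilobase, followed by Hdac3 at 39.3 ± 3.32. The most abundant class IIa gene, Hdac5, reached 14.3 ± 1.94 CPM per kilobase. Next came Hdac6 at 9.09 ± 0.765 and Hdac7 at 9.08 ± 1.10, which did not differ beyond their spread, since Hdac6 was the higher of them in 2 of 4 controls. Hdac10 was at 7.94 ± 0.475, Hdac8 at 4.45 ± 0.393, Hdac4 at 2.77 ± 0.247 and Hdac9 at 0.255 ± 0.131 CPM per kilobase, with no overlap between neighbours in that order. In knockouts the ranges of Hdac2 and Hdac1 overlapped, though Hdac2 was the higher in all 4 libraries. Hdac6, at 13.4 ± 1.43, overlapped Hdac5, at 16.5 ± 0.978, and Hdac5 was the higher in 3 of 4 knockouts. Hdac7, at 7.09 ± 0.556, lay below Hdac10, at 9.68 ± 0.430, in all 4 knockouts. This order depends in part on the length used. Per kilobase of the longest transcript Hdac1 was above Hdac2, at 98.1 ± 6.54 against 92.9 ± 7.79 in controls. Per kilobase of coding sequence Hdac8 was above Hdac6 in controls, at 19.0 ± 1.68 against 15.3 ± 1.29, and Hdac10 went from place 7 to place 9. In knockouts, with coding length, Hdac7 (16.8 ± 1.31) was no longer below Hdac10 (16.4 ± 0.727), and Hdac6, at 20.1 to 25.7, did not overlap Hdac5, at 39.2 to 44.6. Hdac1, Hdac2 and Hdac3 held the first 3 places, Hdac5 place 4 and Hdac9 the last with all 3 lengths.

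Among class I genes, Hdac1 (ENSMUSG00000028800, chromosome 4, 129516104 to 129542713, GRCm38) encodes a catalytic subunit of SIN3 and NuRD. It had 202, 191, 189 and 218 CPM across Controls 1 to 4, against 210.3, 219, 235 and 229 CPM across knockouts 1 to 4. Control 4, the highest control, lay among the knockouts, and 3 of 4 knockouts were above all controls. The log2 fold change was 0.16 ± 0.07 (SE, 4 against 4 libraries; 95% interval -0.005 to 0.32), which did not pass the edgeR test (adjusted p = 0.130). With the counts of Gm10093 added it was 0.17 and did not pass either, and Gm10093 alone was at 0.22 ± 0.09 (edgeR adjusted p = 0.0723). The identifier prefix is a code in the labels of unknown meaning (s686 for Controls 1 and 2 and knockout 4, s1244 for Control 3 and knockouts 1 to 3, s722 for Control 4). With a block for prefix, Hdac1 was at 0.225 with an adjusted p of 0.0333, the 1 call among 19 alternatives, which ran to an adjusted p of 0.754. Control 4 alone carries s722, so a block for prefix takes Control 4 out of the comparison between groups.

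Hdac2 (ENSMUSG00000019777, chromosome 10, 36974544 to 37001889), the close paralog that pairs with HDAC1 in the same complexes, had 302, 284, 284 and 338 CPM in controls and 291, 304, 309 and 339 CPM in knockouts. The groups covered nearly the same range, and the highest value in each was replicate 4. Its log2 fold change of 0.04 ± 0.08 had a 95% interval of -0.14 to 0.23 (edgeR adjusted p = 0.758). Hdac3 (ENSMUSG00000024454, chromosome 18, 37935844 to 37955016), the catalytic subunit of the NCoR and SMRT complexes, had 166, 151, 146 and 175 CPM in controls and 153, 151, 172 and 167 CPM in knockouts. All knockouts lay within the range of the controls, and the log2 fold change was 0.01 ± 0.08 (95% interval -0.17 to 0.195, edgeR adjusted p = 0.934), with its sign changing under 10 of 19 alternatives. Hdac8 (ENSMUSG00000067567, X chromosome, 102284639 to 102505359), which deacetylates the cohesin subunit SMC3, had 20.8, 22.0, 19.4 and 23.9 CPM in controls and 22.1, 23.5, 22.9 and 24.8 CPM in knockouts. Its groups overlapped too, at 0.12 ± 0.09 on the log2 scale (95% interval -0.08 to 0.32, edgeR adjusted p = 0.373). For class I, 0 of 4 genes had an unadjusted p under 0.05 in edgeR, and DESeq2 and limma-voom also called 0. The intervals reach at most a 1.25-fold rise, at the upper bound for Hdac1, and a fall to 0.889 at the lower bound for Hdac3.

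Among class IIa genes, Hdac7 (ENSMUSG00000022475, chromosome 15, 97792664 to 97844502) is best known for its role in keeping vessels intact through endothelial cells. It had 57.7, 57.5, 57.7 and 72.5 CPM across Controls 1 to 4, against 48.7, 52.0, 48.0 and 42.9 CPM across knockouts 1 to 4. Each knockout lay below each control, a separation seen for 36.1% of all tested genes. The log2 fold change was -0.36 ± 0.10 (95% interval -0.58 to -0.14, edgeR adjusted p = 0.0186), with -0.425 among libraries of identifier prefix s686 and -0.22 among those of s1244, values that have no test. Endothelium markers summed to 124, 116, 190.5 and 37.4 CPM across Controls 1 to 4 and to 55.7 to 113 CPM in knockouts, and their part in the change of Hdac7 was not tested. The call ended when trends on transcript length and GC content were removed (0.065, adjusted p = 0.791), and it passed in the other 18 alternatives.

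Hdac4 (ENSMUSG00000026313, chromosome 1, 91928779 to 92195699), a MEF2 repressor known for restraining chondrocyte hypertrophy, had 46.0, 40.5, 40.5 and 48.2 CPM in controls. In knockouts it had 47.3, 52.6, 59.8 and 55.8 CPM. Only Sin3a CKO 1 fell inside the control range. The log2 fold change of 0.30 ± 0.09 (95% interval 0.09 to 0.51) passed edgeR's test with an adjusted p of 0.0343. That call was fragile: it passed in 9 of 19 alternatives, and it ended on leaving out Control 1 (adjusted p = 0.0664), Control 2 (0.113), Control 3 (0.0947), knockout 2 (0.0657), knockout 3 (0.0761) or knockout 4 (0.0813). It ended too without Control 4 and knockout 3 together (0.0598), with no filter (0.238), under upper-quartile scaling (0.0772) and with a block for replicate number (0.0543). Its sign was the same in all 19, from 0.20 to 0.59.

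Hdac5 (ENSMUSG00000008855, chromosome 11, 102194432 to 102230166), a close relative of Hdac4 known from stress responses of the heart, had 117, 115, 119 and 151 CPM in controls. In knockouts it had 149.95, 148, 149 and 132 CPM. Control 4 was as high as the knockouts, Sin3a CKO 4 was the lowest of its group, and the other libraries formed separate ranges. The log2 fold change was 0.21 ± 0.10 (95% interval -0.015 to 0.43) and did not pass edgeR's test (adjusted p = 0.144), but without Control 4 it was 0.25 and passed (adjusted p = 0.0227). It also passed with a block for prefix (0.26, adjusted p = 0.0139), with length and GC trends removed (0.62, adjusted p = 0.00523), and without Control 4 and Sin3a CKO 3 together (0.23, adjusted p = 0.0271).

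Hdac9 (ENSMUSG00000004698, chromosome 12, 34047580 to 34917095), known from muscle and regulatory T cells, was scarce, with 138 to 621 counts per library. It had 5.93, 4.46, 3.20 and 1.40 CPM across Controls 1 to 4, against 2.59, 1.81, 2.36 and 2.09 CPM across knockouts 1 to 4. Controls spread 4.25-fold, from the highest to the lowest of all 8 libraries, and enclosed every knockout. On the log2 scale the change was -0.76 ± 0.38 (95% interval -1.60 to 0.08) and did not pass edgeR's test (adjusted p = 0.155), and single libraries moved it both ways. Without Control 1 it was -0.44 (adjusted p = 0.446), and without Control 4 it was -1.09 and passed (adjusted p = 0.00924). Under the prefix block it passed too (-0.89, adjusted p = 0.0354), as it did with both Control 4 and knockout 3 left out (-1.13, adjusted p = 0.0152). Each of these settings takes Control 4 out of the comparison, so they are not separate checks. The immune markers were also lowest in Control 4, at 16.5 CPM summed against 435, 451 and 246 CPM in Control 1, 2 and 3 and 216 to 361 CPM in knockouts; their part in the spread was not tested.

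In class IIb, Hdac6 (ENSMUSG00000031161, X chromosome, 7930120 to 7947889) encodes the main cytoplasmic deacetylase of alpha-tubulin, cortactin and HSP90. It had 50.2, 53.4, 49.0 and 58.9 CPM across Controls 1 to 4, against 79.8, 74.1, 69.3 and 88.6 CPM across knockouts 1 to 4. Every knockout was above every control, and the means were 52.9 ± 4.45 and 78.0 ± 8.30 CPM. The log2 fold change of 0.56 ± 0.095 (95% interval 0.35 to 0.77, edgeR adjusted p = 0.00152) had the smallest p of the 10 genes, with 0.775 among s686 libraries and 0.60 among s1244 libraries. It passed in all 19 alternatives, between 0.46 and 0.80. The female-specific RNA Xist stood at 117 to 184 CPM in 2 libraries of each group (Control 1 and 2, Sin3a CKO 1 and 3). It was at most 0.185 CPM in the others, so each group held 2 libraries of each kind, which bears on the X-linked Hdac6 and Hdac8. Within a prefix the kinds were not balanced. In s686 both controls were high in Xist and Sin3a CKO 4 was at 0.010 CPM. In s1244 Control 3 was at 0.185 CPM, and Sin3a CKO 1, 2 and 3 were at 139, 0.133 and 117 CPM. The part of this difference in the values within a prefix was not tested.

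Hdac10 (ENSMUSG00000062906, chromosome 15, 89123307 to 89128700), whose product removes the acetyl group from N8-acetylspermidine, had 28.5, 27.2, 27.1 and 24.6 CPM in controls and 33.0, 34.3, 32.6 and 30.8 CPM in knockouts. The groups did not overlap, and replicate 4 was the lowest of each. Its log2 fold change was 0.285 ± 0.08 (95% interval 0.115 to 0.46, edgeR adjusted p = 0.0166), with 0.15 among s686 libraries and 0.30 among s1244 libraries. The call held in 11 of 19 alternatives. It ended on leaving out Control 4 (adjusted p = 0.0822), knockout 2 (0.0595) or knockout 3 (0.0614), or Control 4 and knockout 3 together (0.0842). It ended too with no filter (0.18, adjusted p = 0.304), under upper-quartile scaling (0.18, adjusted p = 0.166), at a mean of at least 10 CPM (0.235, adjusted p = 0.0535) and with a block for prefix (0.23, adjusted p = 0.0742).

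**Figure D2:**
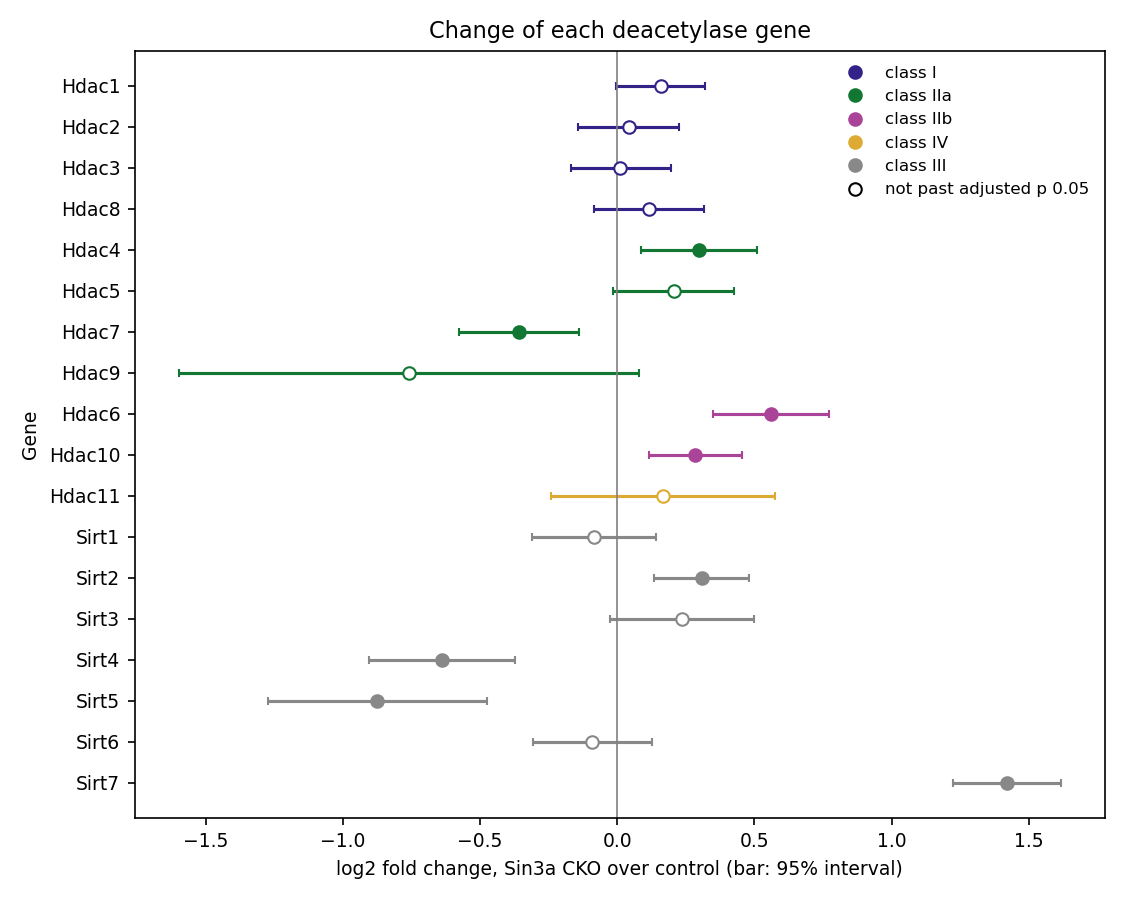
Log2 fold change of Sin3a CKO over control (horizontal axis) for Hdac1 to Hdac11 and Sirt1 to Sirt7, coloured by class, with 95% intervals over 4 against 4 libraries; filled points passed edgeR's test at an adjusted p under 0.05 and open points did not. The 4 class I genes lie between 0.01 and 0.16, Hdac6 and Hdac10 at 0.56 and 0.285, and the sirtuins spread from -0.87 to 1.42.

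Whether members of a class changed unequally was tested on their ratio within each library, which no library scaling can alter. Of 13 within-class pairs, 4 differed between groups without overlap, each at the smallest p this design allows (2-sided exact permutation test over 70 splits, p = 0.0286). After Benjamini-Hochberg adjustment 0 of 13 passed (adjusted p = 0.0929 for these 4). A pair at the smallest p can pass this adjustment only when many of the 13 pairs reach it too. The lack of a pass therefore does not show that a ratio was unchanged. The sharpest was Hdac5 to Hdac7: its log2 count ratio was 1.02, 1.00, 1.05 and 1.06 in Control 1 to 4 and 1.62, 1.51, 1.63 and 1.62 in Sin3a CKO 1 to 4. Hdac5 was thus at about the same multiple of Hdac7 in every control, Control 4 included, and at a multiple 1.48 times larger in knockouts, a difference of 0.57 on the log2 scale. That difference was 0.61 among s686 libraries and 0.54 among s1244 libraries, and the values with a library left out ran from 0.555 to 0.595. The longest annotated transcripts of the pair had 5406 and 5179 bases and 59.8% and 60.2% GC, and with length and GC trends removed the genes stood at 0.62 and 0.065. Which transcripts these cells used was not measured, and the part of length and GC content in the ratio was not tested.

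The Hdac4 to Hdac7 log2 ratio differed by 0.65, from -0.483 ± 0.110 in controls to 0.168 ± 0.211 in knockouts. In class I the shifts were small: 0.145 for Hdac1 to Hdac3, from 0.330 ± 0.038 to 0.475 ± 0.040, and 0.116 for Hdac1 to Hdac2, from -0.594 ± 0.027 to -0.478 ± 0.071. The Hdac1 to Hdac2 shift was 0.007 among s686 libraries and 0.143 among s1244 libraries, and both class I shifts rest on the Hdac1 count that Gm10093 shares. Hdac6 to Hdac10 differed by 0.27 with overlapping groups (exact permutation p = 0.114, adjusted p = 0.297), so a larger rise of Hdac6 than of Hdac10 was not shown. The remaining 8 pairs also overlapped.

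**Figure D3:**
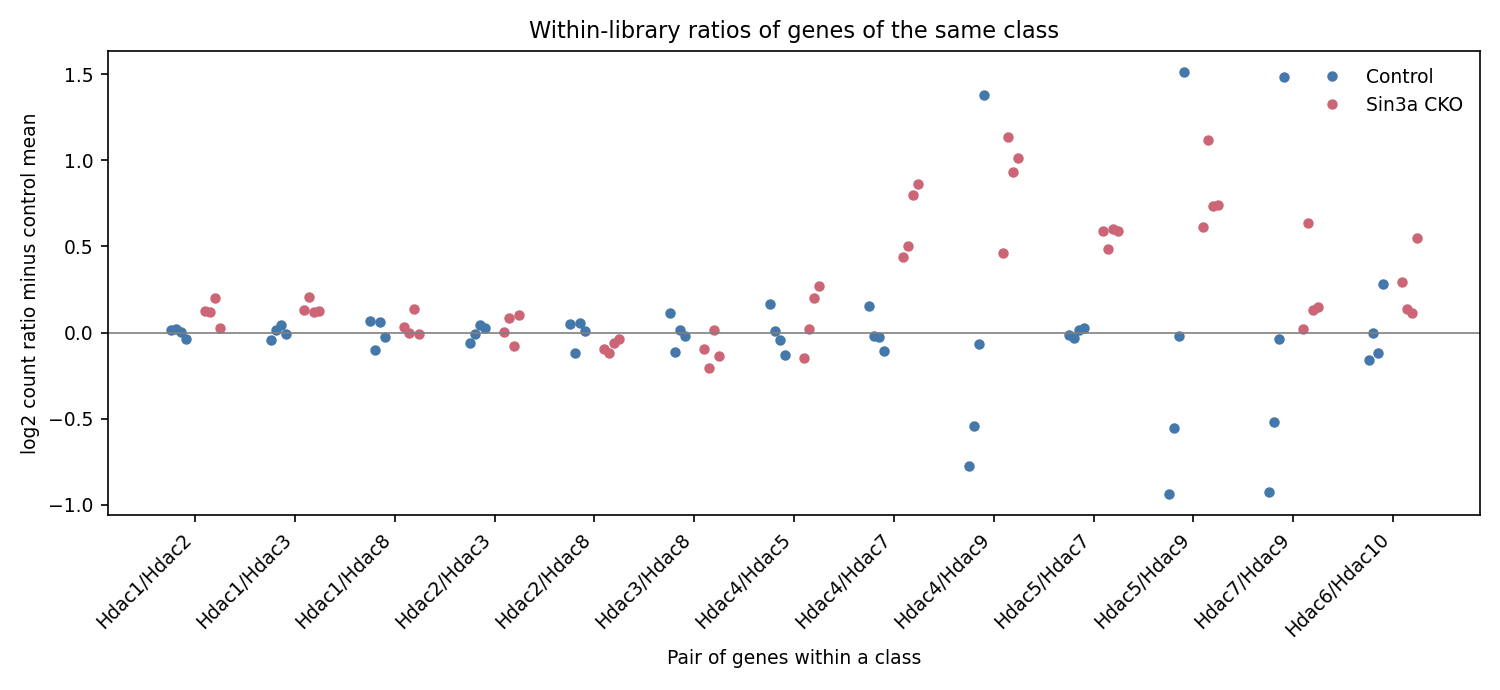
Log2 ratio of the counts of 2 genes of the same class within each library, minus the control mean of that pair (vertical axis), for 13 pairs in 4 Control and 4 Sin3a CKO libraries. The groups separate for Hdac1/Hdac2, Hdac1/Hdac3, Hdac4/Hdac7 and Hdac5/Hdac7, by 0.116, 0.145, 0.65 and 0.57 on the log2 scale, and pairs with Hdac9 spread widely among controls.

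Summed over members per kilobase of exon, class I made up most of the deacetylase transcript in both groups. Its share of the summed level of the 10 genes was 80.2%, 79.4%, 79.3% and 79.4% in Control 1 to 4 and 76.8%, 77.3%, 78.8% and 79.2% in Sin3a CKO 1 to 4. The groups nearly touched, at means of 79.6% ± 0.443 and 78.0% ± 1.18, and they overlapped when the longest transcript or the coding length was used. Class IIa made up 12.4% ± 0.618 and 11.9% ± 0.936, with overlap. Class IIb made up 7.98%, 8.51%, 8.23% and 7.40% in controls and 10.7%, 10.2%, 9.23% and 10.2% in knockouts, every knockout above every control. The class IIb sum itself went from 17.03 ± 0.433 to 23.1 ± 1.17 CPM per kilobase, while the class I sum was 169 ± 13.01 and 179 ± 9.32. These are descriptions of genes already tested one by one and have no p of their own.

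**Figure D4:**
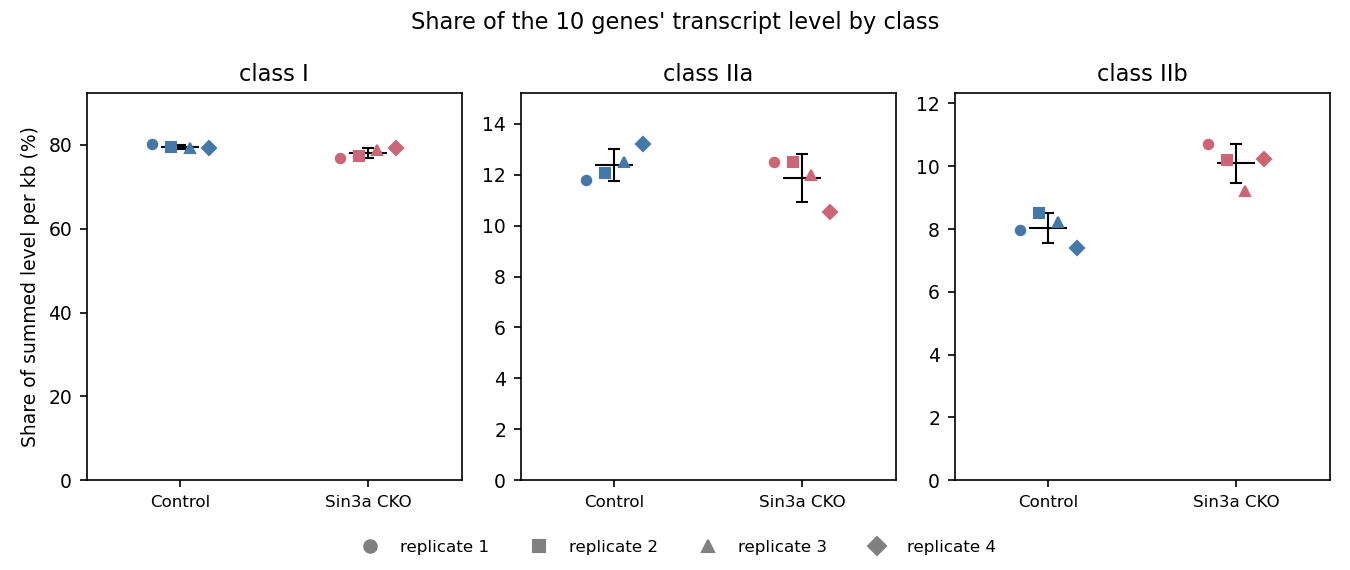
Share of each class in the summed level per kilobase of exon of the 10 genes (vertical axis, percent, from 0) in 4 Control and 4 Sin3a CKO libraries, with a bar at the mean and whiskers of 1 SD. Class IIb lies at 7.40% to 8.51% in controls and 9.23% to 10.7% in knockouts, and the class IIa groups overlap.

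The deacetylases outside these classes moved in both directions. Sirt7, a nucleolar class III enzyme that uses NAD and acts on histone H3, rose from 29.6, 30.2, 32.4 and 25.9 CPM in controls to 71.5, 82.0, 83.0 and 79.3 CPM in knockouts, a log2 fold change of 1.42 ± 0.09 (edgeR adjusted p = 1.71e-05). Sirt2, a cytoplasmic sirtuin that like HDAC6 deacetylates tubulin, rose by 0.31 ± 0.08. With length and GC trends removed it was at 0.40 ± 0.15 and missed the threshold (adjusted p = 0.0858), as it did with no filter (0.21, adjusted p = 0.118). The mitochondrial sirtuins Sirt4 and Sirt5 fell by 0.64 ± 0.12 and by 0.87 ± 0.18 on the log2 scale, and the third, Sirt3, was at 0.24 ± 0.12 and did not pass. Sirt1 and Sirt6 were at -0.08 ± 0.10 and -0.09 ± 0.10 and did not pass. Of 7 sirtuins 2 rose and 2 fell, with a median of -0.08, or 57.1% called beside 33.4% of all tested genes. Hdac11, the sole class IV gene, was at 5.78 ± 1.01 and 6.49 ± 1.17 CPM and did not pass (0.17 ± 0.18).

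The complexes that carry class I enzymes were described from lists of their other subunits. Of 18 SIN3 subunit genes 12 rose and 0 fell (median 0.49), and Ing2, which reads methylated histone H3, rose by 1.35 ± 0.08. Of 12 NuRD subunit genes 2 rose and 4 fell (median -0.12); Gatad2a, a scaffold subunit, rose by 0.38 ± 0.11 with overlapping groups, a call that ended without Control 1, 2 or 3 or knockout 1 (adjusted p = 0.0761, 0.0744, 0.0721 and 0.0653), and Chd3, a remodelling ATPase, fell by 0.80 ± 0.08. Of 9 CoREST genes 0 rose and 3 fell (median -0.20), with Rcor2, a CoREST paralog, at -1.297 ± 0.17. Of 5 NCoR and SMRT genes 1 fell, the WD40 subunit gene Tbl1x, at -0.31 ± 0.09. That call ended with length and GC trends removed (-0.21, adjusted p = 0.317), without Control 1 (-0.315, adjusted p = 0.0513) and under the prefix block (-0.23, adjusted p = 0.0590). Of 4 MiDAC genes 0 passed in edgeR, 0 at an unadjusted p under 0.05 and 0 in DESeq2, while limma-voom called 1. Their log2 fold changes ran from -2.175 to 0.205, so a lack of calls is not a lack of change. The list medians stand beside 0.04 for all genes, and Rbbp4 and Rbbp7 count in both the SIN3 and the NuRD list.

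Around class IIa, 1 of 4 MEF2 genes passed, a share below the 33.4% of all tested genes called. Mef2a, a transcription factor bound and repressed by class IIa enzymes, went from 185 ± 23.3 to 130.5 ± 17.9 CPM, a fall of 0.50 ± 0.12 on the log2 scale. With length and GC trends removed its change was nearly the same, -0.497, with a larger SE and an adjusted p of 0.0537. Of 14 genes of kinases that can phosphorylate class IIa enzymes 3 rose and 4 fell (median -0.14), with Camk2g at 0.92 ± 0.13 and Camk1d at -0.96 ± 0.09. Of 7 genes of 14-3-3 proteins, which hold phosphorylated class IIa enzymes in the cytoplasm, 0 passed in edgeR, with 1 at an unadjusted p under 0.05, 3 calls in DESeq2 and 0 in limma-voom. Their log2 fold changes ran from -0.195 to 1.268, so they were not shown to be unchanged.

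Around class IIb, Atat1, which encodes the enzyme that acetylates alpha-tubulin and so opposes HDAC6, went from 50.04 ± 5.36 to 76.4 ± 6.82 CPM. Its log2 fold change of 0.61 ± 0.10 (edgeR adjusted p = 0.00106) stood beside 0.56 ± 0.095 for Hdac6. Of the 13 genes of HDAC6 substrates and partners 2 rose and 11 did not pass (15.4% called, median 0.18). Of 11 polyamine enzyme genes 6 rose and 1 fell (63.6% called, median 0.305). Srm, which encodes spermidine synthase, rose by 0.80 ± 0.10, and Smox, spermine oxidase, fell by 0.69 ± 0.10. Of 11 histone acetyltransferase genes, whose products oppose deacetylases, 2 rose and 2 fell (median -0.14). That is 36.4% called, near the 33.4% of all tested genes. Hat1, which acetylates new histone H4, was at 0.65 ± 0.09 (0.52 ± 0.18, adjusted p = 0.0633, with length and GC trends removed) and Kat6b at -0.94 ± 0.13. Over all these lists, sirtuins included and each gene counted once, 29 of 113 tested genes rose and 18 fell, 41.6% in all beside 33.4% of all genes.

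Profiles like those of the members were sought among 10730 named genes with a mean of at least 5 CPM, by the root mean square difference between log2 levels centred on each gene's mean over the 8 libraries. Nearest to Hdac6 were Ftsj3 and Ttf2, at differences of 0.034 and 0.043, where the median gene was at 0.31. Nearest to Hdac7 were Chst2, Sh3bp5 and Armc5, at 0.038, 0.042 and 0.058, with a median of 0.298. For Hdac1, which had the smallest p in class I, they were Slc25a17, Tspan3 and Rab2a, at 0.021, 0.025 and 0.027, with a median of 0.208. All 3 sets were picked for likeness over the same libraries, so their fold changes repeat those of the members.

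Promoter windows from RefSeq (GRCm38.p6, 250 bases before to 50 after an annotated start) were at hand for 7 of the 10 genes, in 11 windows. Hdac5 and Hdac7 are shown because their ratio separated the groups, and Hdac6 because it rose in every alternative. Capitals mark the GC box GGGCGG and the E-box CACGTG on either strand; the E-box is the site bound by MAX partners, among them the MXD proteins that recruit SIN3. The windows are chr11:102230123-102230422 for Hdac5, chrX:7947840-7948139 for Hdac6 and, for the outermost of 4 annotated starts of Hdac7, chr15:97844453-97844752, all on the minus strand and written 5′ to 3′.
Hdac5: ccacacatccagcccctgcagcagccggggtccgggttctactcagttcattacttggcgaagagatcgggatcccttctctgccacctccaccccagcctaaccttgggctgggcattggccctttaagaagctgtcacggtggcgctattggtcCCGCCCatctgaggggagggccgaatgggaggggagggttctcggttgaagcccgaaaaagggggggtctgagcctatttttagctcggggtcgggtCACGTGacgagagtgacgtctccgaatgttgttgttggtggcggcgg
Hdac6: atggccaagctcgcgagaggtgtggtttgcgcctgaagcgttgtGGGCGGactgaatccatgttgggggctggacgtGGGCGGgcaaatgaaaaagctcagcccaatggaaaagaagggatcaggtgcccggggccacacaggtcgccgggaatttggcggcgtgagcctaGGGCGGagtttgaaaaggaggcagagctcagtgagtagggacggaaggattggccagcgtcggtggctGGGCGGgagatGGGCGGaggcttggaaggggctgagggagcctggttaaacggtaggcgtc
Hdac7: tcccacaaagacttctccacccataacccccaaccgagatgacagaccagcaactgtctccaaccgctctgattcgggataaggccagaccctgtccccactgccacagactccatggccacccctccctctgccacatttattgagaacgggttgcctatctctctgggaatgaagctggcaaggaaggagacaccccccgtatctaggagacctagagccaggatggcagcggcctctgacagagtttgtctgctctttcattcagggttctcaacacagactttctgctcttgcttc
Hdac6 held 5 GC boxes and 0 E-boxes, Hdac5 held 1 of each, and this Hdac7 window held neither. Of 32851 windows of the same length, 35.7% held a GC box and 7.15% an E-box. GC content was 62.0% for Hdac6, 60.7% for Hdac5 and 54.7% for this Hdac7 window, beside a median of 52.7% over all windows, and CG dinucleotides numbered 20, 18 and 6, beside a median of 7. The other 3 Hdac7 windows had 60.7%, 65.7% and 73.7% GC with 5, 35 and 31 CG dinucleotides and held 0 or 1 GC box, and 2 of them were richer in GC and CG than the Hdac5 and Hdac6 windows. Which Hdac7 start these cells used was not measured. Among the windows not printed, that of Hdac4, called higher, held 5 GC boxes, with 68.0% GC and 32 CG dinucleotides. That of Hdac2, not called, held 1 GC box, with 69.7% GC and 36 CG dinucleotides. The windows of Hdac8 and Hdac9 held 0 GC boxes. A match of letters is a description and not evidence of binding.

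**Figure D5:**
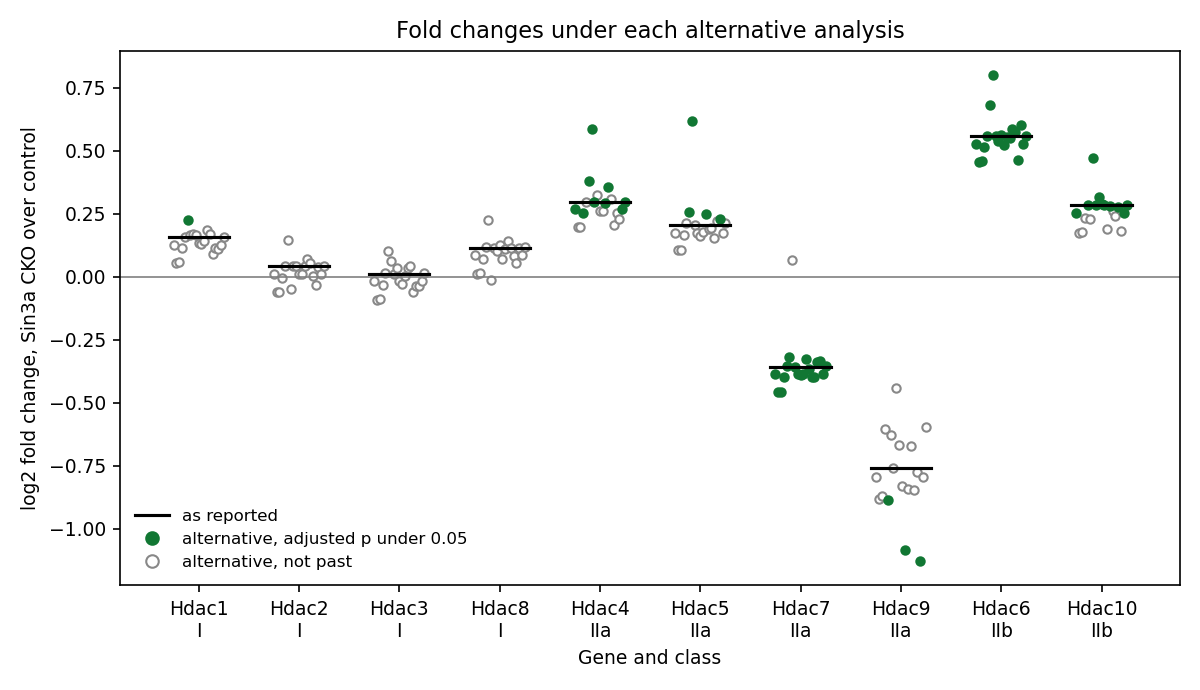
Log2 fold change of Sin3a CKO over control (vertical axis) for each gene as reported (black bar) and under each alternative analysis (points; filled where the adjusted p was under 0.05). Hdac6 was called in 19 of 19 alternatives, Hdac7 in 18 of 19, Hdac10 in 11 and Hdac4 in 9, and Hdac2, Hdac3 and Hdac8 in 0.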

How the data were processed

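RNA-seq libraries were made with Takara SMARTer v4 and Nextera XT per the labels' protocols. Expected counts from RSEM were deposited by the authors for 51912 genes; all were whole numbers, and rounding was without effect. The submitters' processing notes name mm10, STAR 2.5.3a, RSEM 1.3.0 and edgeR without a role for each; the annotation release and strand setting are unstated in those notes, the labels and the table, and reads of overlapping genes cannot be told apart (Hdac7 and Slc48a1 share 29 exon bases). Totals were 96098322 to 108493347 counts. Replicates are labelled biological, and p-values measure the spread between these libraries.

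The members and lists were chosen with earlier results of these data known. Genes were kept by filterByExpr (minimum count 10), scaled by TMM and tested with edgeR 4.0.16 in R 4.3.3 (2-sided quasi-likelihood test, robust, group as the only term; SE is the absolute change over the square root of F), with Benjamini-Hochberg adjustment over 20315 genes. Lengths, GC content and coordinates came from GENCODE M21 (GRCm38), which held 51719 of the identifiers. Ratios used 0.5 counts as pseudocount. Copies were sought with BLAST 2.17.0. Named genes were the 10 members, Hdac11, the sirtuins, the called gene with the smallest p in each direction of each list, and the 3 nearest profiles of the member with the smallest p in each class; 1 such profile and 1 marker's own values are not reported here. Alternatives were scaling by RLE or upper quartile, testing without a filter or above a mean of 10 CPM, limma-voom (limma 3.58.1), DESeq2 1.42.0, blocks for replicate number and identifier prefix (s686, s1244, s722), removal of length and GC trends (mgcv 1.9.3), copies added, other lengths for levels per kilobase, a pseudocount of 5 counts, libraries left out in turn, and Control 4 and Sin3a CKO 3 left out together. The tests were checked on simulated counts.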

Additional observations from a re-analysis of the deposited data

Results flagged for a closer look

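A library lay far from the other 3 of its group in 7 of 68 groups of 4 values examined, where chance flags about 1 in 20. Control 4 was high for Hdac5 (151 CPM), Hdac7 (72.5 CPM) and Sirt1 (46.1 CPM). Sin3a CKO 4 was low for Hdac5 (132 CPM). Sin3a CKO 2 was high for the Hdac1 to Hdac3 log2 ratio (0.535) and low for the Hdac5 to Hdac7 log2 ratio (1.51), and Control 1 had the highest class I share of its group (80.2%).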

How the results depend on the processing

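Hdac6 kept its call and direction under all 19 alternatives run on it. The count of the 10 genes called higher, 3, was 1 under upper-quartile scaling and 1 with no filter, and 1 to 3 with a library left out. It was 4 with a block for prefix and 4 with length and GC trends removed. The count called lower, 1, was 2 with a block for prefix, 0 with length and GC trends removed, where Hdac7 was at 0.065 (also -0.048 for Hdac2, -0.012 for Hdac8, 0.079 for Sirt6 and 0.015 for Armc5), 2 without Control 4 and Sin3a CKO 3 together, and 1 to 2 with a library left out. Over all genes no filter gave 2233 higher and 3823 lower, trend removal gave 2107 lower, and a library left out gave 2653 to 3260 higher and 2548 to 3723 lower. Partner genes called lower, 18, were 35 under upper-quartile scaling, 28 at a mean of at least 10 CPM, in DESeq2 and without Control 4 and Sin3a CKO 3, 9 with trends removed, and 11 to 29 with a library left out (23 to 32 higher). Hdac3, not called in any setting, was -0.018 under RLE scaling and in DESeq2, -0.091 under upper-quartile scaling, -0.088 with no filter, -0.032 at a mean of at least 10 CPM, -0.038 without Control 4 and Sin3a CKO 3, and -0.061 to 0.042 with a library left out. Hdac2 was -0.062 under upper-quartile scaling, -0.059 with no filter, -0.004 at a mean of at least 10 CPM and -0.033 to 0.072 with a library left out, and Sirt1 was 0.027 with a block for prefix. The share difference between groups was -0.58 percentage points for class I and -1.41 for class IIa within prefix s686, and 1.32 for class IIb with coding length; with a library left out the differences ran from -1.96 to -1.14, -0.72 to -0.06 and 1.85 to 2.35. The causes of these shifts were not tested. Replicate numbers are not stated to pair the libraries, and the values do not settle it. Deviations of same-numbered libraries correlated at -0.27, 0.281, -0.099 and 0.269 for replicates 1 to 4. The knockout closest to a control had the same number for replicates 2 and 4 and another number for replicates 1 and 3. The replicate block called 3560 genes higher and 3222 lower, among them 2 and 1 of the 10 deacetylases, since Hdac4 had an adjusted p of 0.0543. Sign flips of the ratios within replicate number cannot go below an exact p of 0.125, and with a library left out the ratio test could not pass, so ratios there are values only. Hdac9 could not be fitted at a mean of at least 10 CPM, with 138 counts in its lowest library.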
